A study of Homo sapiens with 3 samples.

Results

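Cytochrome P450 enzymes, the products of the CYP genes, are haem proteins that insert oxygen into drugs, fatty acids, sterols and vitamins. The genes described are the rows of a table of promoter signals that lie on chromosomes 1 to 22, carry a CYP symbol made of a family number, a subfamily letter and a gene number, and are not described as pseudogenes. The rule found 55 genes on 15 chromosomes among 57997 symbols, and it used no measured value. Of these, 35 belong to families 1 to 4, which act on drugs, carcinogens, fatty acids and eicosanoids, 16 to the sterol and steroid families, and 4 to families 20 and 26.

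The signal comes from chromatin immunoprecipitation and sequencing (ChIP-seq) in SW1990, an established line of human pancreatic ductal cancer, in cells that the titles label SP. Chromatin fixed with EGS, a protein crosslinker, at 1.5 mM and with formaldehyde at 0.4% was precipitated with an antibody against PAF1 in 1 library and against PHF5A in another. The PAF1 title reads PD2, another name of this subunit of the PAF1 complex, which travels with elongating RNA polymerase II, and PHF5A belongs to SF3b, a complex of the splicing machinery. The series title ties both proteins to stemness in pancreatic cancer. A further library of input chromatin was not analysed here, and the protocol also names an IgG control.

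Each value is the mean signal of a window of 2500 bp in hg38 that reaches 2000 bp upstream and 500 bp downstream of its start site. The cells share 1 line and the same fixation, and each antibody has 1 library, so no difference below has a replicate check and no p-value is given. The identity of the line cannot be read from promoter signal and was not checked. The median promoter had a signal of 4.11 with PAF1 and 4.30 with PHF5A. Over all windows the signal corresponded to bin sums of 4.81e+06 and 4.89e+06, which are not read numbers because a fragment can fall in several bins of 150 bp. The figure after each ± is the standard error of counting within that library, with medians over the CYP promoters of 1.02 with PAF1 and 1.03 with PHF5A. A signal below 0.721 to 0.768, depending on the library and the number of bins, cannot be told from a listed 0. Only CYP2A6 with PHF5A lay below that floor. Folds are ratios of signal + 0.5.

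P450 enzymes of families 1 to 3 carry out most oxidative drug metabolism in liver and gut, and many are induced through nuclear receptors such as PXR or through the aryl hydrocarbon receptor. Family 4 enzymes hydroxylate the ends of fatty acids and eicosanoids. The sterol and steroid enzymes make cholesterol, bile acids, steroid hormones and active vitamin D, mostly in liver, adrenal gland, gonads and kidney, and family 26 enzymes break down retinoic acid. Many family 2, 3 and 4 genes arose by tandem duplication and still lie side by side, so neighbouring promoters share both ancestry and chromosomal region.

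The letters of 5 promoters show how far base composition varies among the CYP genes. The lines below give the 300 bases around the RefSeq start, from 250 before it to 50 after it, of 3 promoters with the highest signal, followed by those of the neighbours CYP26A1 and CYP26C1, of which CYP26A1 had the lowest mean signal of the 55 genes and CYP26C1 a signal below the median promoter in both libraries. They are RefSeq sequences of GRCh38.p14, written 5′ to 3′ in the direction of the gene, and capitals mark each CG dinucleotide. The sequence of CYP3A7 lies at chr7:99735147-99735446 on the minus strand, that of CYP3A5 at chr7:99679947-99680246 on the minus strand and that of CYP3A4 at chr7:99784135-99784434 on the minus strand. The sequence of CYP26A1 lies at chr10:93073225-93073524 and that of CYP26C1 at chr10:93060548-93060847, both on the plus strand.
CYP3A7: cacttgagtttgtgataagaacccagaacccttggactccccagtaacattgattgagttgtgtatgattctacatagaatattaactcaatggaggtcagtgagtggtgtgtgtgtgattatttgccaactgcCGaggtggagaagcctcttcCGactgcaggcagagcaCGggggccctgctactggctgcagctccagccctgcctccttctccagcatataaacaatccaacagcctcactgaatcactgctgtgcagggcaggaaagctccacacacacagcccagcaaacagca
CYP3A5: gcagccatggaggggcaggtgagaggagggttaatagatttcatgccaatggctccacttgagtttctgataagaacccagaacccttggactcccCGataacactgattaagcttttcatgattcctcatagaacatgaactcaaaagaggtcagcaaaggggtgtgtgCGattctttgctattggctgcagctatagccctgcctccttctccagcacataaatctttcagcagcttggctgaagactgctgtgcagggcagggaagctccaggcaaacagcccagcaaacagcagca
CYP3A4: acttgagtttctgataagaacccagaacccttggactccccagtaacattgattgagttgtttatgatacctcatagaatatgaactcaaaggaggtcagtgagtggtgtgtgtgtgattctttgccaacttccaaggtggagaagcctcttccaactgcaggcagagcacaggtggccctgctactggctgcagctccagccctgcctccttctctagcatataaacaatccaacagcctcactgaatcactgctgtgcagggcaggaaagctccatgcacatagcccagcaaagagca
CYP26A1: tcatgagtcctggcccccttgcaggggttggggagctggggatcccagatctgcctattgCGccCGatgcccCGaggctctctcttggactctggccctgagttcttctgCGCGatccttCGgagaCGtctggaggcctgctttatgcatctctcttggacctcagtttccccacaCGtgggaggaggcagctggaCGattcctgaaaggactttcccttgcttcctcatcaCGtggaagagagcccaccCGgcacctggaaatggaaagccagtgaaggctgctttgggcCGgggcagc
CYP26C1: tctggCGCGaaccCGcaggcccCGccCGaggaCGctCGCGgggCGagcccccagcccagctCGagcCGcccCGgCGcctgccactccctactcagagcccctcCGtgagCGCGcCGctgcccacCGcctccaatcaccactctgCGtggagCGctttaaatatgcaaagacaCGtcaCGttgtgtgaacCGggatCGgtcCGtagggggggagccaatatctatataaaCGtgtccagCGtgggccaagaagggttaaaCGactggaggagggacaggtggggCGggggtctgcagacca
CYP3A7 holds 3 CG dinucleotides, CYP3A5 holds 2 and CYP3A4 none, against 12 in CYP26A1 and 29 in CYP26C1. CYP3A7 and CYP3A4 are 93.7% identical over this stretch, so their reads may be hard to separate, whereas the other pairs within the CYP3A cluster are 57.3% to 67.5% identical. Both CYP3A7 and CYP3A4 hold the letters tataaa near the start and aggtca further upstream, and CYP3A5 holds aggtca but not tataaa. CYP26C1 holds tataaa as well, so these letters do not set the high promoters apart.

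As a whole, the CYP promoters lay at the level of promoters in general. With PAF1 they ranged over 0.880 to 10.9 with a median of 4.11, equal to the median promoter, and with PHF5A over 0.440 to 9.05 with a median of 4.41. Above the median promoter were 27 of 55 with PAF1, where 49.9% of all symbols were, and 28 with PHF5A, where 49.6% were. On the log2 scale their medians stood 0.00 and 0.03 from the median promoter, with 95% counting intervals of -0.11 to 0.11 and -0.08 to 0.14. All 55 are genes with protein-coding-style symbols, and those symbols had lower medians of 3.61 and 3.91. Set against that class, whose centre lies 0.17 and 0.12 lower on the log2 scale, the CYP medians stood 0.17 and 0.15 above it, and 31 and 30 of 55 lay above it, where 49.8% and 49.6% of the class did.

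At or above 2 times the median promoter stood 4 CYP genes with PAF1, all of them CYP3A, where 8.11% of all symbols reached that level. With PHF5A no CYP gene reached it, where 6.76% did, and none did so in both libraries, where 4.63% did. CYP3A5 came nearest with PHF5A, at 1.99 times. Set against the protein-coding-style median, 6 and 2 members reached 2 times, where 9.12% and 7.82% of that class did.

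At or below 0.5 times the median promoter stood 6 with PAF1 (CYP24A1, CYP2W1, CYP46A1, CYP4A22, CYP2A7 and CYP26A1), where 15.9% of symbols did. With PHF5A it was 5 (CYP4X1, CYP46A1, CYP2A7, CYP2A6 and CYP26A1), where 15.5% did. CYP46A1, CYP2A7 and CYP26A1 did so in both libraries, where 11.3% of symbols did. In both directions the CYP genes were thus no more frequent among extreme promoters than symbols in general.

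**Figure D1:**
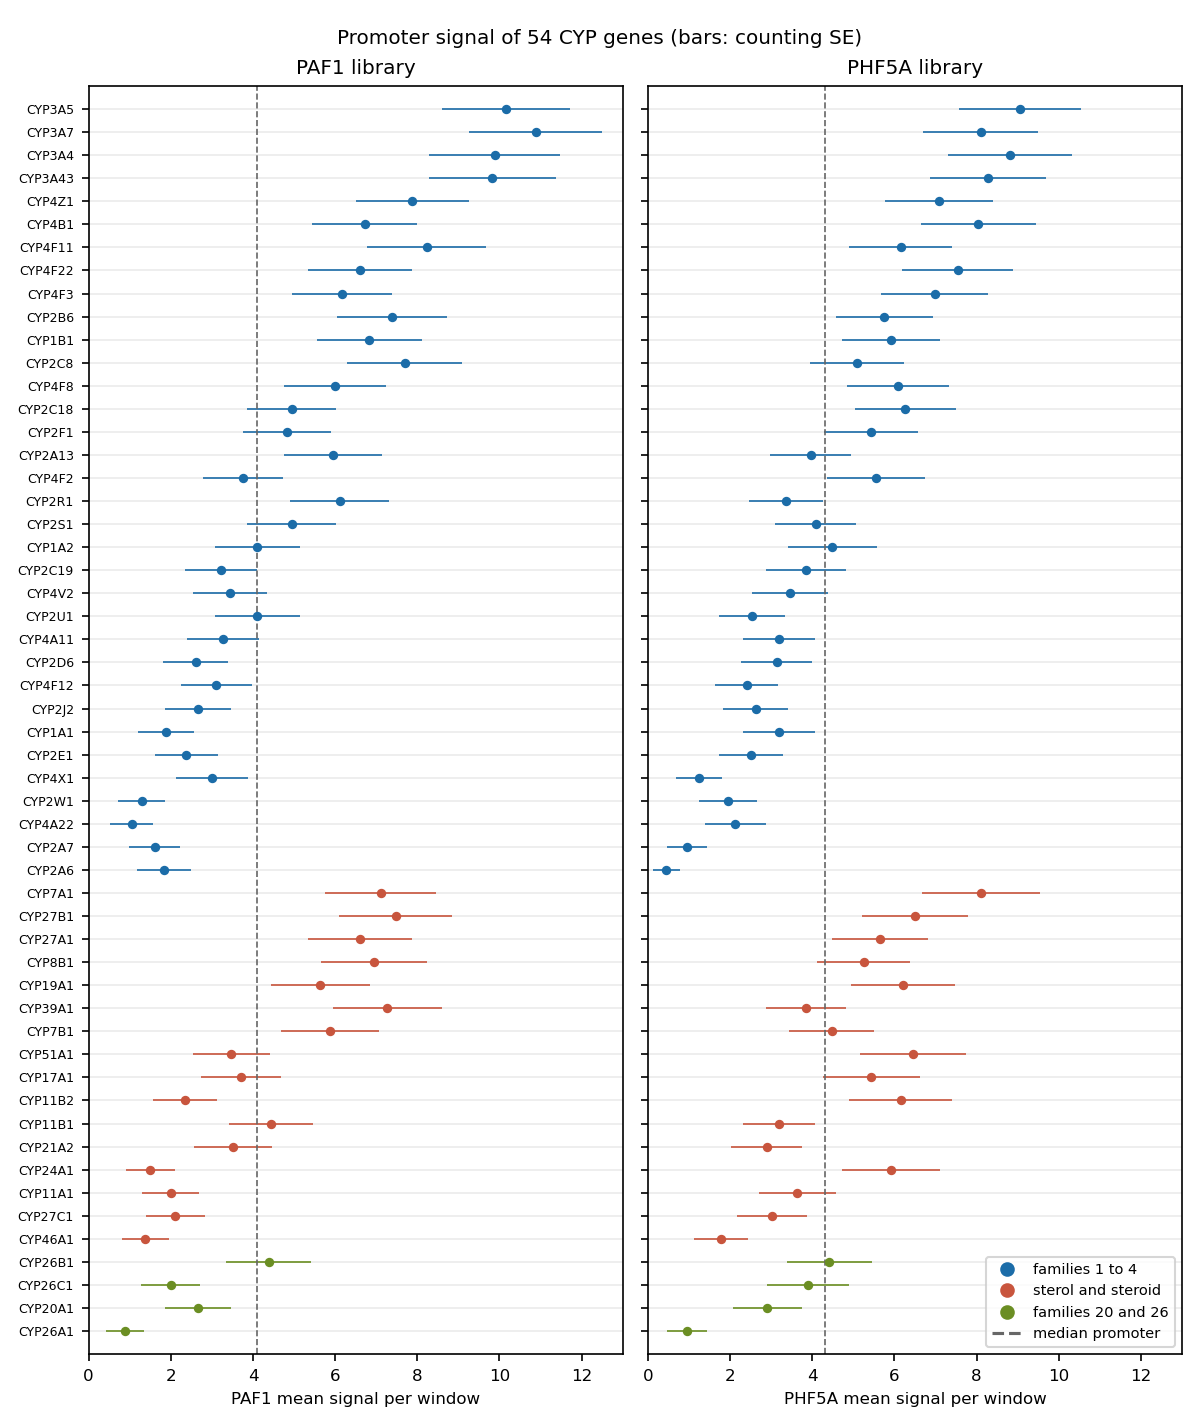
Mean promoter signal per window (x axis, in the deposited signal unit) of 54 of the CYP genes with PAF1 (left) and PHF5A (right), with bars of 1 counting standard error and a dashed line at the median promoter. The 4 CYP3A genes are highest with PAF1 and among the highest with PHF5A, where CYP7A1 equals CYP3A7 at 8.10, and CYP2A6, CYP2A7, CYP46A1 and CYP26A1 lie far left of the line.

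The CYP3A genes had the highest signals of the CYP genes with PAF1 and, with CYP7A1 equal to CYP3A7, with PHF5A. Their products metabolise more drugs than those of any other subfamily: CYP3A4 is the main form of adult liver and gut, CYP3A5 is made in only some people, CYP3A7 is the form of fetal liver, and CYP3A43 is expressed at low levels. CYP3A7 (ENSG00000160870, window at chromosome 7, 99734696 to 99737196) had 10.9 ± 1.62 with PAF1 and 8.10 ± 1.40 with PHF5A. CYP3A5 (ENSG00000106258, chromosome 7, 99679498 to 99681998) had 10.2 ± 1.56 and 9.05 ± 1.48. CYP3A4 (ENSG00000160868, chromosome 7, 99783765 to 99786265) had 9.88 ± 1.59 and 8.81 ± 1.50. All lie within counting error of each other, and CYP3A43 (ENSG00000021461, chromosome 7, 99826013 to 99828513) joined them with 9.83 ± 1.54 and 8.27 ± 1.41. Relative to the median promoter they stood at 2.24 to 2.47 times with PAF1 and 1.79 to 1.99 times with PHF5A.

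The high signal was not limited to the CYP3A promoters themselves. Relative to the windows within 1 Mb, the 4 genes had 2.53 to 2.79 times the regional level with PAF1 and 1.98 to 2.2 times with PHF5A, but relative to windows within 250 kb only 1.68 to 1.92 and 1.38 to 1.90 times. Between the first and the last CYP3A window lie 3 windows of other genes, at 3.0, 7.0 and 12.8 with PAF1 and at 8.83, 6.80 and 12.4 with PHF5A in the same order. The highest of them, CTD-3244O18.7, exceeded all 4 CYP3A promoters in both libraries, at 12.8 ± 1.75 and 12.4 ± 1.73. Among other windows up to 100 kb outside the cluster the medians were 6.38 with PAF1 and 6.09 with PHF5A (7 windows), from 100 to 250 kb they were 4.11 and 3.52 (20 windows), and farther out 3.27 and 3.8 (71 windows). The medians were therefore highest in and near the cluster and lower at a distance, for windows of other genes as well.

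**Figure D2:**
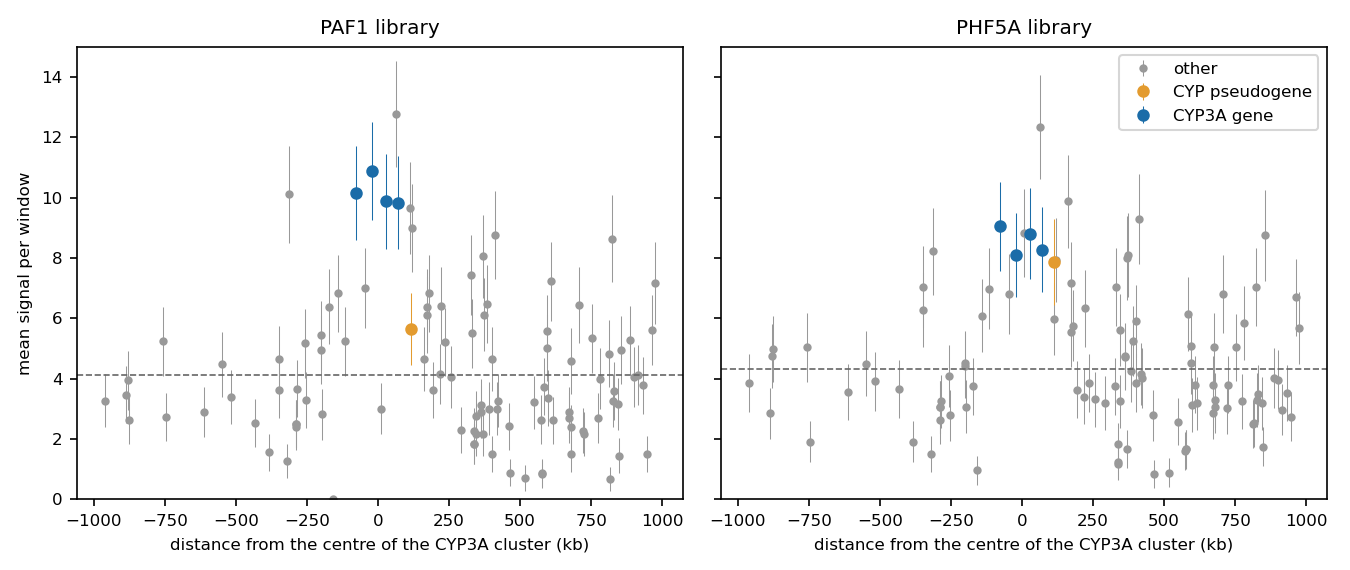
Mean signal per window (y axis, deposited unit, bars 1 counting standard error) of every window within 1 Mb of the CYP3A cluster, against the distance from the cluster's centre in kb, with PAF1 (left) and PHF5A (right). The CYP3A genes lie above the dashed median promoter in both libraries, and several windows of other genes near the cluster lie as high, up to 12.8 with PAF1.

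Family 1 enzymes oxidise polycyclic aromatic hydrocarbons and oestrogens and are induced through the aryl hydrocarbon receptor. CYP1A1, the form induced in many tissues, had 1.88 ± 0.674 with PAF1 and 3.18 ± 0.878 with PHF5A. CYP1A2, the caffeine-oxidising form of liver, had 4.11 ± 1.02 and 4.49 ± 1.07. Between the neighbours the gap with PAF1 was larger than that with PHF5A, and neither had a replicate check. CYP1B1, the form outside the liver that acts on oestradiol, had 6.83 ± 1.28 and 5.92 ± 1.20. However, the start site used for its listed window lies 33.8 kb from the RefSeq start of the gene.

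The family 2 genes had medians of 3.79 with PAF1 and 3.24 with PHF5A over 16 genes, and 7 and 4 of them lay above the median promoter. In the cluster on chromosome 19, CYP2B6, which oxidises bupropion and efavirenz (ENSG00000197408, chromosome 19, 40989299 to 40991799), had 7.38 ± 1.33 and 5.75 ± 1.18. CYP2A13, an enzyme of the airways that activates tobacco nitrosamines, had 5.94 ± 1.20 and 3.96 ± 0.980, and CYP2F1, an enzyme of lung, had 4.83 ± 1.08 and 5.42 ± 1.15. CYP2S1 at the end of the cluster had 4.94 ± 1.09 and 4.08 ± 0.993.

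In the same cluster CYP2A6, the nicotine-oxidising enzyme of liver (ENSG00000255974, chromosome 19, 40881710 to 40884210), was listed with 1.83 ± 0.664 with PAF1 and 0.440 ± 0.329 with PHF5A. CYP2A7 had 1.61 ± 0.622 and 0.950 ± 0.479. Both were below the other genes of the cluster, but they do not give separate measurements. Their listed windows overlap, and the window listed for CYP2A6 holds the RefSeq start of CYP2A7. The RefSeq start of CYP2A6 lies 31.8 kb from the start site used for its window. For these reasons, and because the genes are known as close copies of each other, the values of both are uncertain.

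The CYP2C genes on chromosome 10 metabolise omeprazole and paclitaxel among others. CYP2C8, the paclitaxel hydroxylase (ENSG00000138115, chromosome 10, 95068997 to 95071497), was the highest at 7.70 ± 1.40 with PAF1 and had 5.08 ± 1.14 with PHF5A. CYP2C18 had 4.94 ± 1.09 and 6.26 ± 1.23. CYP2C19, which activates clopidogrel, had 3.22 ± 0.880 and 3.85 ± 0.966. CYP2C18 and CYP2C8 lay above the median promoter in both libraries, and CYP2C19 below it in both, by less than 1.5 standard errors.

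The family 2 genes outside clusters lay mostly low, apart from CYP2R1, which is given with the vitamin D genes. CYP2D6, which activates codeine, had 2.61 ± 0.792 with PAF1 and 3.13 ± 0.870 with PHF5A. CYP2E1, which oxidises ethanol, had 2.38 ± 0.758 and 2.51 ± 0.780, in a window whose own start site lies 6.96 kb upstream of the RefSeq start. The window of RP11-108K14.12, which holds the RefSeq start of CYP2E1, had 1.35 ± 0.587 and 1.47 ± 0.616. CYP2J2, an epoxygenase of arachidonic acid in heart, had 2.66 ± 0.801 and 2.62 ± 0.797. CYP2U1, a fatty acid hydroxylase, had 4.11 ± 1.02 and 2.54 ± 0.807. CYP2W1, known for its expression in colon tumours (ENSG00000073067, chromosome 7, 981199 to 983699), was among the lowest at 1.29 ± 0.574 and 1.95 ± 0.707. All of these but CYP2U1 with PAF1, which equalled it, lay below the median promoter in both libraries.

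The 12 family 4 genes split in a similar way, with medians of 4.88 with PAF1 and 5.83 with PHF5A. In the cluster on chromosome 1, CYP4Z1, a gene of mammary tissue (ENSG00000186160, chromosome 1, 47065488 to 47067988), had 7.88 ± 1.38 and 7.09 ± 1.31. CYP4B1, which activates the lung toxin ipomeanol, had 6.72 ± 1.27 and 8.04 ± 1.40, in a window whose own start site lies 41.2 kb from the RefSeq start. CYP4A11, the lauric acid hydroxylase of liver and kidney, had 3.27 ± 0.888 and 3.18 ± 0.878. CYP4X1 had 3.0 ± 0.874 and 1.24 ± 0.564. CYP4A22, a close copy of CYP4A11, had 1.05 ± 0.519 and 2.13 ± 0.739. CYP4Z1 and CYP4B1 thus lay above the median promoter and the other 3 genes of this cluster below it, in both libraries. CYP4A11 and CYP4A22 may share reads, which was not tested.

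In the CYP4F cluster on chromosome 19, 4 of 6 genes lay above the median promoter with PAF1 and 5 with PHF5A, in a region that was as high. The median gene of the cluster stood at 1.02 times the windows within 1 Mb with PAF1 and 1.08 times with PHF5A. CYP4F11 had 8.23 ± 1.45 and 6.15 ± 1.26, and CYP4F22, which makes the long-chain ceramides of the skin barrier, had 6.61 ± 1.26 and 7.54 ± 1.35. CYP4F3, which inactivates leukotriene B4 in neutrophils, had 6.16 ± 1.22 and 6.98 ± 1.30. CYP4F8, which acts on prostaglandins, had 6.0 ± 1.24 and 6.09 ± 1.25. The windows of CYP4F3 and CYP4F8 overlap, and the RefSeq start of CYP4F3 lies 25.3 kb from the start site used for its window. This pair, counted as 2 genes above, thus gives 1 measurement of the region. CYP4F2, which breaks down vitamin K, had 3.76 ± 0.979 and 5.56 ± 1.19, and CYP4F12 was the lowest of the cluster at 3.11 ± 0.865 and 2.40 ± 0.762. CYP4V2, a fatty acid hydroxylase mutated in Bietti crystalline dystrophy of the eye, lies alone and had 3.44 ± 0.910 and 3.46 ± 0.915.

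The genes of bile acid synthesis come next. CYP7A1, the rate-limiting enzyme of bile acid synthesis (ENSG00000167910, chromosome 8, 58499736 to 58502236), had 7.11 ± 1.35 with PAF1 and 8.10 ± 1.44 with PHF5A. CYP8B1, which sets the balance of cholic acid, had 6.94 ± 1.29 and 5.25 ± 1.13, and CYP27A1, which starts the alternative pathway in mitochondria, had 6.61 ± 1.26 and 5.64 ± 1.17. CYP7B1, which hydroxylates oxysterols, had 5.88 ± 1.19 and 4.47 ± 1.04. CYP39A1, which hydroxylates the cholesterol metabolite made in brain, had 7.27 ± 1.32 and 3.85 ± 0.966. These 5 lay above the median promoter in both libraries, except for CYP39A1 with PHF5A, none reached 2 times it, and CYP7B1 with PHF5A exceeded it by less than 1 standard error.

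The remaining cholesterol genes differed. CYP46A1, which hydroxylates cholesterol in neurons (ENSG00000036530, chromosome 14, 99682304 to 99684804), had 1.38 ± 0.578 with PAF1 and 1.78 ± 0.658 with PHF5A, both below 0.5 times the median promoter. CYP51A1, the lanosterol demethylase of cholesterol synthesis, had 3.47 ± 0.940 and 6.45 ± 1.29, in a window whose own start site lies 8.15 kb from the RefSeq start. The window of CYP51A1-AS1, which holds the RefSeq start of CYP51A1, had 3.16 ± 0.872 and 3.46 ± 0.915. The gap between the libraries at the listed window was thus not seen at the RefSeq start.

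The genes of steroid hormone synthesis lay around the median promoter. CYP11A1, which cleaves the side chain of cholesterol, had 2.0 ± 0.693 with PAF1 and 3.63 ± 0.937 with PHF5A. CYP17A1, which leads to androgens and cortisol, had 3.70 ± 0.971 and 5.44 ± 1.18, and the aromatase gene CYP19A1, whose enzyme makes oestrogens, had 5.64 ± 1.20 and 6.21 ± 1.26. Of these, CYP19A1 alone lay above the median promoter in both libraries. CYP11B1, which makes cortisol, had 4.44 ± 1.03 and 3.18 ± 0.878. CYP11B2, the aldosterone synthase (ENSG00000179142, chromosome 8, 142917343 to 142919843), had 2.35 ± 0.774 and 6.15 ± 1.26. The neighbours CYP11B1 and CYP11B2 had opposite orders in the libraries, and as the genes are known as close copies they may share reads, which was not tested.

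CYP21A2, the steroid hydroxylase deficient in most congenital adrenal hyperplasia (ENSG00000231852, chromosome 6, 32036265 to 32038765), had 3.52 ± 0.948 and 2.89 ± 0.862. Its near-identical copy CYP21A1P had 3.33 ± 0.895 and 2.17 ± 0.726. The pair lies in the major histocompatibility region, where the windows within 1 Mb had 10.7 with PAF1 and 11.3 with PHF5A, so CYP21A2 stood at 0.357 and 0.288 times its region. Reads from near-identical copies may be lost or split in alignment, and the part of this in the low ratio was not tested.

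The vitamin D genes stood far apart. CYP27B1, which activates vitamin D in kidney, had 7.47 ± 1.38 with PAF1 and 6.50 ± 1.29 with PHF5A. Its window overlaps that of METTL21B, and the start site used for it lies 1.91 kb from the RefSeq start of CYP27B1. CYP2R1, a family 2 enzyme that makes the circulating form of the vitamin, had 6.11 ± 1.21 and 3.35 ± 0.901. CYP24A1, which degrades vitamin D (ENSG00000019186, chromosome 20, 54173473 to 54175973), had 1.50 ± 0.60 and 5.92 ± 1.20. CYP27C1, of the same family as CYP27B1 but a desaturase of retinoids in skin, had 2.11 ± 0.712 and 3.01 ± 0.854. CYP24A1 and CYP2R1 were thus among the CYP genes whose libraries differed most, in opposite directions.

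The retinoic acid hydroxylases of family 26 and the orphan CYP20A1 made up the last class. CYP26A1 (ENSG00000095596, chromosome 10, 93071475 to 93073975) had 0.880 ± 0.462 with PAF1 and 0.950 ± 0.479 with PHF5A, just over the counting floor in both. Its neighbour CYP26C1 had 2.0 ± 0.713 and 3.90 ± 1.00. CYP26B1, on another chromosome, had 4.38 ± 1.03 and 4.41 ± 1.03. CYP20A1 had 2.66 ± 0.801 and 2.90 ± 0.838. The start site used for its window lies 569 bp from its RefSeq start, which the window does not hold. CYP26B1 was the only one of the 4 above the median promoter, by less than 1 standard error in each library.

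Set side by side, the drug-metabolizing and the sterol families did not differ in 1 direction. With PAF1, families 1 to 4 had a median of 4.83 (35 genes) and the sterol and steroid families 4.07 (16 genes), a log2 difference of 0.23 with a 95% counting interval of -0.02 to 0.47. With PHF5A the medians were 4.08 and 5.35, a log2 difference of -0.35 with an interval of -0.58 to -0.12. Above the median promoter were 18 of 35 and 8 of 16 with PAF1, and 17 of 35 and 10 of 16 with PHF5A. After division by the regional level the differences were 0.11 and -0.14. The PAF1 difference fell to 0.017 without the 4 CYP3A genes, to 0.021 with 1 value per gene cluster and to 0.0049 with CYP2R1 among the sterol genes. The PHF5A difference was -0.56 with 1 value per gene cluster, -0.22 without windows that hold no RefSeq start and -0.18 with means in place of medians. The counting intervals hold no spread between genes and none between replicate libraries. With PAF1 the standard deviation of the log2 signal among genes was 0.77 within families 1 to 4 and 0.73 within the sterol and steroid families. With PHF5A it was 0.79 and 0.51.

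A gene counted as clustered where another CYP start lay within 500 kb, in a chain, which gave 32 genes in 8 clusters and 23 single genes. By this rule CYP11A1 falls into 1 cluster with CYP1A1 and CYP1A2. Clustered genes had medians of 4.64 with PAF1 and 4.79 with PHF5A, against 3.70 and 3.85 for single genes, log2 differences of 0.29 (counting interval 0.07 to 0.51) and 0.28 (0.06 to 0.50). In each library 17 of 32 clustered genes lay above the median promoter, against 10 of 23 single genes with PAF1 and 11 of 23 with PHF5A. Most of the difference rests on 1 cluster: without the CYP3A genes the clustered medians were 3.94 and 4.02 (28 genes), and the differences fell to 0.08 and 0.06. With 1 value per cluster they were -0.0049 with PAF1, which turns the direction, and 0.12 with PHF5A. The median within clusters ran with PAF1 over 1.44 for the CYP26A1 and CYP26C1 pair, 2.0 for CYP1A with CYP11A1, 3.27 for the family 4 cluster on chromosome 1, 3.40 for CYP11B, 4.21 for CYP2C, 4.89 for the family 2 cluster on chromosome 19, 6.08 for CYP4F and 10.0 for CYP3A. Clusters therefore stood on both sides of the median promoter.

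Against windows within 1 Mb (16 to 172 windows per gene, none nearer than 10 kb and no CYP gene or pseudogene), the CYP promoters again lay close to their surroundings. The median log2 ratio was 0.05 with PAF1 and 0.06 with PHF5A, with counting intervals of -0.06 to 0.16 and -0.05 to 0.17. In each library 31 of 55 lay above their region, where 49.7% of all symbols did with PAF1 and 49.9% with PHF5A. At or above 2 times the region stood 7 with PAF1, the CYP3A genes with CYP2B6, CYP2C8 and CYP2E1, where 6.18% did. With PHF5A it was 5, namely CYP3A5, CYP3A4, CYP3A43, CYP11B2 and CYP2E1, where 5.09% did. The 4 genes that reached it in both libraries were CYP3A5, CYP3A4, CYP3A43 and CYP2E1, where 3.34% of those windows did. Just inside and outside the threshold with PHF5A stood CYP3A43 at 2.04 times and CYP3A7 at 1.98 times. The CYP3A genes share 1 region, and without them 3 and 2 of 51 genes reached 2 times their region, close to the share of those windows.

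CYP2E1 had the highest ratio of all, 3.22 times its region with PAF1 and 3.58 times with PHF5A, although its own signal was low. The ratio rests on the surroundings: the median of its 74 regional windows was 0.395 and 0.340, under the counting floor, and 44 of the 74 were below the floor in each library. Of those 74 windows 10 carry the name of the DUX4L repeat copies. The size of the CYP2E1 ratio is therefore not measured at this depth.

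At or below 0.5 times the region stood 6 with PAF1 (CYP21A2, CYP24A1, CYP27C1, CYP46A1, CYP4A22 and CYP26A1), where 11.1% of windows with a regional level did. With PHF5A it was 7 (CYP21A2, CYP4F12, CYP4X1, CYP46A1, CYP2A7, CYP2A6 and CYP26A1), where 9.75% did. CYP21A2, CYP46A1 and CYP26A1 did so in both libraries, where 6.11% did. CYP46A1 had 0.332 and 0.425 times its region, and CYP26A1 had 0.360 and 0.325 times. With PAF1 these low genes were 1 of 35 in families 1 to 4, 4 of 16 sterol and steroid genes and 1 of the other 4. With PHF5A they were 4, 2 and 1 in that order. At or above 2 times the region the classes had 7, 0 and 0 genes with PAF1 and 4, 1 and 0 with PHF5A, CYP3A genes included. CYP24A1 stood at 0.272 times with PAF1 and 0.741 times with PHF5A in a region of high signal, 6.85 and 8.17.

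**Figure D3:**
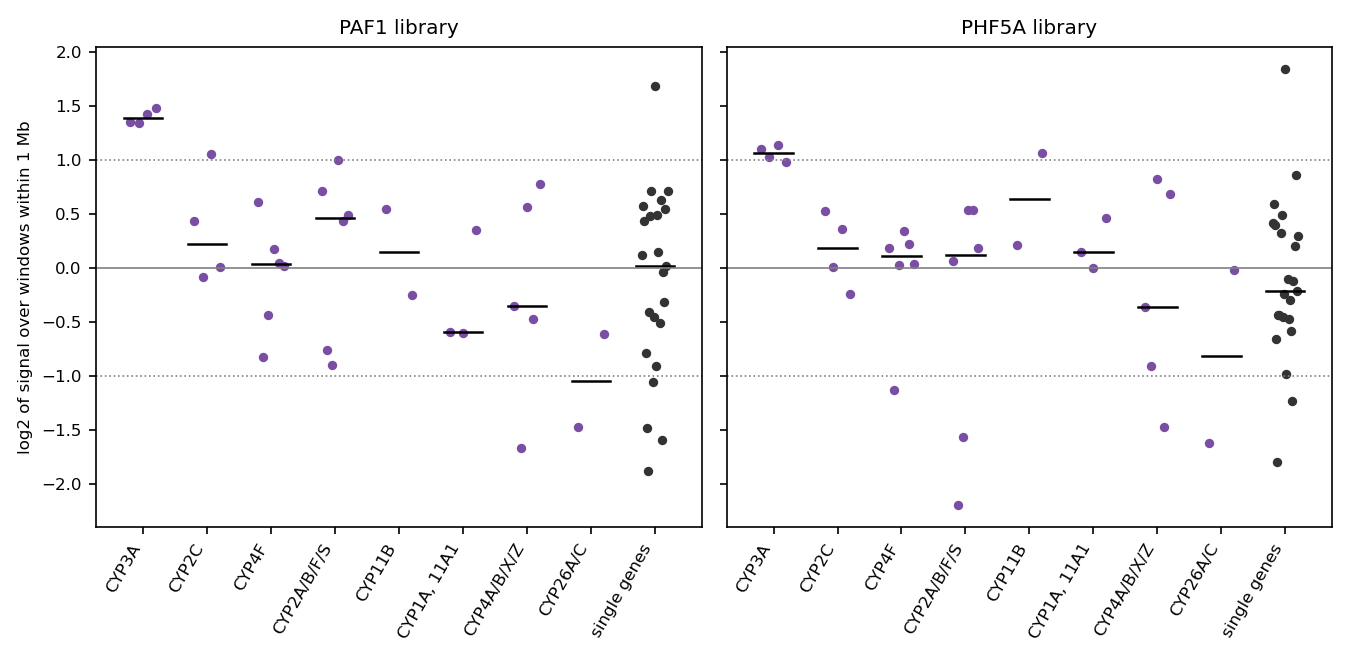
Log2 ratio of each CYP promoter to the windows within 1 Mb (y axis), with PAF1 (left) and PHF5A (right), for each gene cluster and for single genes, with bars at the medians and dotted lines at 2-fold up and down. The CYP3A genes lie together near or above the upper line, while the other clusters spread over both sides of 0.

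The libraries ranked the CYP promoters alike. Spearman's rho between PAF1 and PHF5A was 0.768 over the 55 genes and 0.803 after division by the regional level, as against 0.844 over all 57997 symbols. These are descriptions, since the points share chromatin, regions and in part windows. In both libraries 22 genes lay above the median promoter, where 40.8% of symbols did, and 21 below it, where 40.5% did, so these shares were near those of symbols in general. The median log2 ratio of PAF1 over PHF5A was 0.05 with a counting interval of -0.10 to 0.20.

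At or above 1.5 times after centring, PAF1 over PHF5A, stood 8 genes, where 9.91% of symbols did. They were CYP2C8, CYP39A1, CYP2A13, CYP2R1, CYP2U1, CYP4X1, CYP2A7 and CYP2A6. They hold 7 of the 35 genes of families 1 to 4 and 1 of the 16 sterol and steroid genes, and CYP2A6 and CYP2A7 among them have overlapping windows. At or below 0.667 times stood 6, where 9.53% did. They were CYP51A1, CYP11B2, CYP24A1, CYP26C1, CYP11A1 and CYP4A22. They hold 4 of the 16 sterol and steroid genes, 1 of the 35 genes of families 1 to 4 and 1 of the other 4. In both directions the share of CYP genes was near that of symbols in general. Beyond 3 counting standard errors stood only CYP24A1, 1 of 55, where 3.27% of windows did. Those errors are scaled by the differences between these same libraries, so this count does not test a difference.

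CYP24A1 had a log2 ratio of -1.62 ± 0.51, that is 0.324 times. CYP11B2 followed with -1.16 ± 0.48, then CYP26C1 with -0.76 ± 0.53 and CYP51A1 with -0.75 ± 0.43. At the other end CYP2A6 had 1.37 ± 0.65, of which the PHF5A value is under the floor. CYP4X1 had 1.07 ± 0.59, CYP39A1 0.90 ± 0.40 and CYP2R1 0.84 ± 0.43. Apart from CYP24A1, each of these lies within 3 counting standard errors of equality, which for the same reason is not a test of equality.

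**Figure D4:**
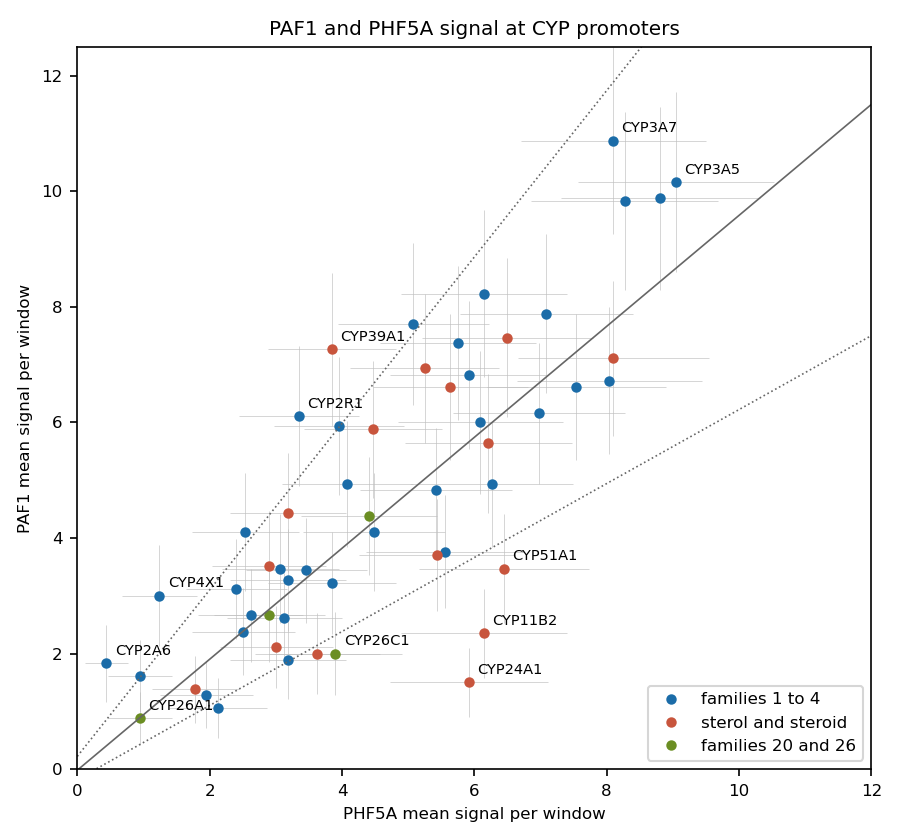
PAF1 signal (y axis) against PHF5A signal (x axis) of the 55 CYP promoters, in the deposited unit with bars of 1 counting standard error, a solid line of equality after centring on the median promoter and dotted lines at 1.5-fold. Most genes lie between the dotted lines, and CYP24A1 and CYP11B2 lie farthest below them.

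Base composition was read from the RefSeq promoters of 300 bases in GRCh38.p14, which matched 31 of the 55 genes and 12958 symbols in all. The 24 other genes were not matched. The CYP promoters were poor in CpG: the ratio of observed to expected CG dinucleotides had a median of 0.287, against 0.759 over all matched promoters. With all promoters split into 5 bins of equal size by this ratio, 16 of the 31 CYP genes fell in the lowest bin, 5 in each of the next 3 and none in the highest. Signal over all promoters was highest in the lowest bin, with medians of 5.05 with PAF1 and 5.14 with PHF5A, against 3.05 and 3.40 in the highest bin. The 16 CYP genes of the lowest bin had medians of 6.69 and 5.66. The 5 CYP genes of the next bin had 1.88 and 3.01, where all promoters of that bin had 3.82 and 4.08.

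Within the CYP genes, signal and CpG ratio had a Spearman's rho of -0.46 with PAF1 and -0.57 with PHF5A over 31 genes, and of -0.32 and -0.47 over the 27 without CYP3A. Over all matched promoters it was -0.24 and -0.21. The points share libraries and, within clusters, ancestry and region. CYP3A4, CYP4Z1 and CYP2C8 hold no CG dinucleotide in the 300 bases, with signals of 9.88, 7.88 and 7.70 with PAF1 and 8.81, 7.09 and 5.08 with PHF5A. The 5 genes with the most, 29 to 36, were CYP4V2, CYP2U1, CYP26C1, CYP2S1 and CYP27A1, which ran over 2.0 to 6.61 with PAF1 and 2.54 to 5.64 with PHF5A. Few CG dinucleotides did not always go with a high signal. CYP4F2, with 1, had 3.76 ± 0.979 with PAF1, below the median promoter by less than 1 standard error. With PHF5A it had 5.56 ± 1.19, above the median promoter. Among single genes alone, 11 of which matched, rho was 0.17 with PAF1 and 0.05 with PHF5A, and among the 6 matched sterol and steroid genes it was 0.54 and 0.26. Families 1 to 4 had -0.52 and -0.60 over 22 genes. The part that base composition has in the library signal was not tested, as the input was not analysed here.

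**Figure D5:**
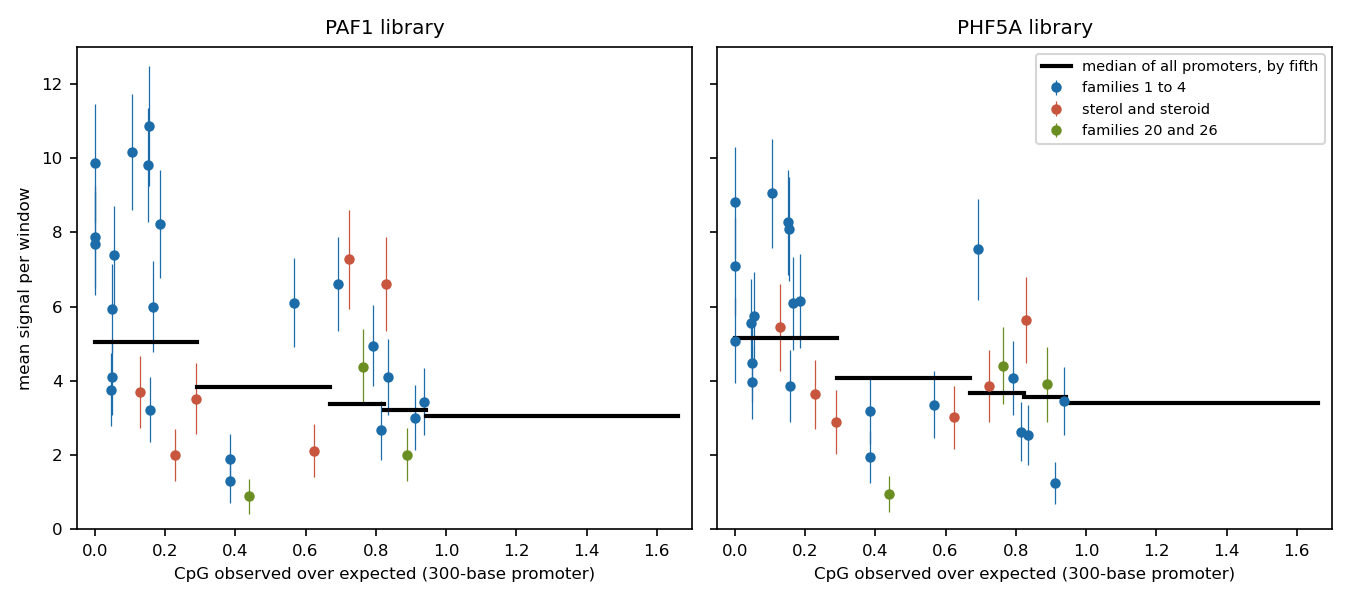
Mean promoter signal (y axis, deposited unit, bars 1 counting standard error) of the 31 matched CYP genes against the ratio of observed to expected CG dinucleotides in 300 bases (x axis), with PAF1 (left) and PHF5A (right), and black lines at the medians of all 12958 promoters in each of 5 bins of that ratio. The CYP3A genes lie at ratios under 0.2 and above the black line of the lowest bin in both libraries.

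Motif letters were searched on both strands of the same 300 bases, and none of the 4 motifs contains another. TATAAA, the letters of a TATA box, occurred in 11 of 31 CYP promoters (35.5%), against 9.72% of all matched promoters. AGGTCA, the core letters of nuclear receptor sites, occurred in 10 (32.3%), against 11.9%, among them CYP3A7, CYP3A5, CYP3A4 and CYP2B6. GCGTG, the core letters of the aryl hydrocarbon receptor site, occurred in 9 (29.0%), against 44.0%, and GGGCGG, a GC box, in 13 (41.9%), against 57.6%. CYP promoters with TATAAA had medians of 4.38 with PAF1 and 4.41 with PHF5A, and those without it 4.53 and 3.97. Those with AGGTCA had 4.32 and 4.76, and those without it 4.38 and 3.96. Those with GCGTG had 2.66 and 3.18, against 6.06 and 5.26 without it, and this motif holds a CG dinucleotide itself. A match of letters describes the sequence and is not a binding site.

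The listed window did not always cover the start that RefSeq gives. It held a RefSeq start for 46 of the 55 genes. For the other 9, among them CYP4B1, CYP1B1, CYP2A6, CYP4F3, CYP51A1 and CYP2E1, the start lay 521 bp to 41.2 kb outside the start used for the window. The 46 genes alone had medians of 4.25 with PAF1 and 4.25 with PHF5A, with 23 above the median promoter in each library. Windows of 12 CYP genes overlapped the window of a gene that is not a CYP gene, and 4 overlapped another CYP window.

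CYP pseudogenes, copies that have lost their function, gave a comparison without a working enzyme. There were 46 on the autosomes, CYP2D7 included, with medians of 4.51 with PAF1 and 4.77 with PHF5A and 27 above the median promoter in each library. The 21 inside the CYP clusters or within 100 kb of their ends had medians of 5.64 and 5.47, with 19 and 18 above the median promoter. The 25 elsewhere had 3.35 and 3.35, with 8 and 9 above it. The highest was CYP4F10P at 9.58 ± 1.56 and 9.40 ± 1.55, above each CYP4F gene. CYP2D7, the close copy of CYP2D6, had 3.66 ± 0.939 and 7.09 ± 1.31, and the genes may share reads, which was not tested. Pseudogene promoters in or near the clusters thus had medians not lower than those of the clustered genes, 4.64 and 4.79. The sets are not alike, as they spread differently over the clusters. Protein-coding-style symbols also had lower medians in general, 3.61 with PAF1 and 3.91 with PHF5A, against 4.11 and 4.30 for all symbols.

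The genes that work with P450 enzymes spread as widely. Of 8 listed symbols of redox partners, which pass electrons to the P450 haem, 7 were found under that symbol. Their medians were 3.72 with PAF1 and 3.55 with PHF5A, with 3 above the median promoter in each library. By the mean of the centred log2 signals of both libraries, by which highest and lowest are given in these lists, the adrenodoxin reductase gene FDXR was highest at 10.2 ± 1.61 and 8.34 ± 1.46 and FDX1L lowest at 1.23 ± 0.561 and 1.30 ± 0.577, although CYB5B had more with PHF5A, 9.11 ± 1.48. POR, the reductase of microsomal P450 enzymes, had 2.64 ± 0.801 and 2.60 ± 0.797. The 28 transcription regulators of CYP genes had medians of 2.80 and 3.77, with 9 and 11 above the median promoter. Among them RARA was highest at 10.6 ± 1.60 and 12.96 ± 1.77, and THRB was lowest at 1.00 ± 0.490 and 0.550 ± 0.368, the PHF5A value under the floor.

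Most of the receptors and factors that drive CYP genes in liver lay above the median promoter themselves. NR1I3, which encodes the receptor CAR, had 11.9 ± 1.69 with PAF1 and 9.55 ± 1.52 with PHF5A. NR1I2, which encodes PXR, the inducer of CYP3A4, had 6.70 ± 1.31 and 7.27 ± 1.37. AHR, the inducer of family 1, had 8.50 ± 1.43 and 11.1 ± 1.64, and HNF4A, a liver and pancreas factor, had 8.58 ± 1.43 and 10.4 ± 1.58. VDR, the vitamin D receptor that induces CYP24A1, had 3.16 ± 0.872 and 3.74 ± 0.952. Of these 5, VDR alone lay below the median promoter, in both libraries.

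Of 28 listed symbols of partners in steroid and bile acid metabolism, 27 were found under that symbol. Their medians were 4.58 with PAF1 and 4.08 with PHF5A, with 15 and 12 above the median promoter. By the mean of both libraries they ran from AKR1C3 at 8.83 ± 1.46 and 9.72 ± 1.53 to LSS at 1.27 ± 0.554 and 0.950 ± 0.479. Conjugating enzymes, 39 of 40, had 3.82 and 4.13, with 18 and 17 above, and by that mean SULT1C2 was highest at 10.7 ± 1.60 and 8.55 ± 1.44, although UGT1A1 with PAF1, at 10.8 ± 1.61, and GSTM3 with PHF5A, at 11.5 ± 1.66, had more in 1 library. GSTM1 and SULT1A3, which have close copies, were listed at 0 in both libraries, and the cause was not tested. Other enzymes of the first phase of drug metabolism, 18 of 18, had 6.0 and 5.48, with 13 above in each library. This list holds POR, also counted among the redox partners, and MAOA and MAOB of chromosome X. By that mean MAOA was lowest at 1.27 ± 0.554 and 0.890 ± 0.465, which was 0.797 and 0.529 times the windows within 1 Mb. MAOB had less with PAF1 alone, 0.70 ± 0.424, under the floor. The P450 enzymes with other names were both above the median promoter: PTGIS, the prostacyclin synthase, had 7.61 ± 1.35 and 9.66 ± 1.53, and TBXAS1, the thromboxane synthase, had 4.72 ± 1.07 and 4.58 ± 1.05.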

How the data were processed

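The values are the deposited mean signal of the PAF1 and PHF5A ChIP-seq libraries per promoter window, in 1 table made by the authors. How they were normalized is stated neither by the labels nor by the table, whose sheet name ends in Relative_E, so what 1 unit stands for is not known. Per the submitters' processing notes, the tools were bedtools, deepTools, Picard, Bowtie2 2.2.3 and Trim Galore with the GRCh38 (hg38) build, and no order or setting is named. Over 17 or 18 bins of 150 bp, 99.1% of PAF1 values are means of whole numbers, as are 98.9% of PHF5A values once divided by 1.00608, each matching exactly when cut to 2 decimals.

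Windows of a symbol were averaged, and log2(signal + 0.5) was centred on the median of 57997 symbols. Counting errors used a dispersion of 4.33, the spread of PAF1 against PHF5A bin sums over 50207 windows, and floors used 3 counts. The dispersion step was tested on simulated windows without a difference between the libraries, so that test does not cover antibody differences. The 95% counting intervals and floors rest on this dispersion and hold no spread between replicates. With 1 library per antibody no test was made. A region is the median of windows within 1 Mb, at least 5, none within 10 kb. No other column of per-sample values was present.

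Genes and lists were chosen with earlier results of these data known. CYP genes are named by role, cluster and extreme values, and 1 of the 55 is counted in every summary but not reported here by itself. Of other lists, the highest and the lowest gene by the mean of both libraries (where reported here) and POR, AHR, NR1I2, NR1I3, HNF4A and VDR are named, and further genes were chosen after their values were seen. Computation used Biopython 1.88, matplotlib 3.10.9, SciPy 1.17.1, numpy 2.4.6 and pandas 2.3.3 under Python 3.11.15.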

Additional observations from a re-analysis of the deposited data

How the results depend on the processing

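The level, family, cluster, region and library results of the CYP genes were recomputed, each with those other pseudocounts, centres, regions, folds, cluster distances and sets of genes that bear on it. Values of pseudogenes, other lists, base composition and motifs were not. The settings without the CYP3A genes and without windows that hold no RefSeq start were chosen after seeing the data. Of the recomputed values 143 kept their direction and moved by no more than the 95% counting interval or, for counts of genes, by at most 1.5 times, 20 moved by more and 1 reversed. Because that interval is wide, the 143 include differences that came close to 0: families 1 to 4 minus the sterol families with PAF1 (0.23 as reported) was 0.017 without the CYP3A genes, 0.021 with 1 value per cluster and 0.0049 with CYP2R1 among the sterol genes, and clustered minus single with PAF1 (0.29) was 0.08 without the CYP3A genes. No paired analysis was possible because each antibody has 1 library, and leaving out a library was not possible for the same reason.

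The value that reversed was the clustered minus single difference with PAF1, -0.0049 with 1 value per cluster. With PHF5A that difference was 0.059 with means in place of medians and 0.055 without the CYP3A genes. Centred on protein-coding-style symbols, the median CYP level was 0.17 with PAF1 and 0.15 with PHF5A, and 2 genes reached 2 times that centre with PHF5A. Without the CYP3A genes the levels were -0.11 and -0.11, no gene (0) reached 2 times the median promoter with PAF1, and 3 and 2 reached 2 times their region.

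A fold of 1.5 over the median promoter gave 16 and 9 genes. With a pseudocount of 1, 3 genes reached 2 times their region with PHF5A, and PAF1 over PHF5A was at or above 1.5 times for 4 genes. With windows within 250 kb, 4 and 2 genes reached 2 times their region. Protein-coding-style windows in the region gave median log2 ratios of 0.20 and 0.22. A fold of 2 between the libraries left 2 genes in each direction. The cause of these changes was not tested, except that fewer genes or a higher fold lower a count by construction. At this depth a CYP promoter near the median carries a counting error of 1.02 with PAF1 and 1.03 with PHF5A (medians over the genes).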

Other observations

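The CYP4F pseudogenes fell into high and low sets by place, a split chosen after their values were seen. The 5 in the CYP4F cluster or within 100 kb of its ends had medians of 8.82 with PAF1 and 5.47 with PHF5A. Of these, 4 lay above the median promoter in each library. The 12 elsewhere in the genome had medians of 1.63 and 1.37, with 1 and 0 above it, and 4 of them were below the counting floor in each library. CYP4F25P on chromosome 9 was listed at 0 with PAF1 and 0.160 ± 0.201 with PHF5A, and CYP4F30P on chromosome 2 had 0.110 ± 0.173 with PAF1 and was listed at 0 with PHF5A. Pseudogene copies of this subfamily resemble each other, so reads may be lost or split between them in alignment, and the part of this in the low values was not tested.

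Pseudogenes that lie alone were not all low. CYP2AB1P on chromosome 3 had 8.16 ± 1.40 with PAF1 and 9.27 ± 1.50 with PHF5A, the highest mean of the 25 neither in nor near the clusters. CYP3A54P on chromosome 7 had 8.33 ± 1.42 and 7.65 ± 1.36, close to the CYP3A genes, which had 9.83 to 10.9 and 8.10 to 9.05.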
